A study of Ovis aries with 36 samples.

Results

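Psoas major (PM) and Rectus femoris (RF) are both flexors of the hip. PM runs from the lumbar spine to the femur, whereas RF belongs to the quadriceps of the thigh and also extends the knee. The comparison asked which genes differ in expression between these 2 muscles within the same lamb. It used the 8 samples titled PM1 to PM4 and RF1 to RF4, of the 36 samples of the series, in which 9 muscles were taken from each of 4 lambs. The lambs were unrelated male Poll Dorset crosses from different flocks, 14 months old, with live weights of 67 to 72 kg at slaughter. They were raised on grassland, with soy crop and sorghum grain as a supplement from weaning to slaughter. Each sample came from the mid superficial belly of 1 muscle within a short time after slaughter, so a single site stands for the whole muscle. The same fit held the other muscles, which were Adductor (AD), cranial Gluteobiceps (GB), Longissimus lumborum (LL), Semitendinosus (ST), Supraspinatus (SS), Gluteus medius (GM) and Semimembranosus (SM).

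Skeletal muscles are mixtures of slow and fast fibers. Slow fibers contract with their own isoforms of the myosin light chains, the troponin complex and tropomyosin, they resist fatigue, and they rely on oxidative metabolism. Fast fibers carry other isoforms of the same proteins and buffer calcium in the cytoplasm with parvalbumin. Muscles also keep traces of where they arose in the embryo, since Hox genes, which encode transcription factors laid out in clusters along the chromosome, are expressed by position along the body and limb.

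Slow fiber genes are among the genes that differed between PM and RF. For 3 of them the primer pairs are given that the study designed across exon junctions for its PCR assay of ST and SS. The forward primer comes first and the reverse primer second, each from 5′ to 3′. The primers were not used to pair names with loci. No part of a primer is set in capitals because no motif in them is at issue.
MYOZ2 forward: accacggttactgagatggg
MYOZ2 reverse: ggtgaagcagaggaaagagc
MYL3 forward: tctccaagaacaaggacaccg
MYL3 reverse: atcttctgtcagcctctcacc
TNNC1 forward: aggagatgattgacgaggtgg
TNNC1 reverse: cttcatgcagcgaaccatcat

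Total counts were 5256304 to 6304546 in RF and 4118178 to 6209124 in PM. The 4 most counted loci took 67.7 to 71.4% of the counts of each library, so that the remaining transcriptome rested on 1214226 to 2034119 counts. Expression is reported in CPM relative to the TMM-normalized library size, and 3 counts corresponded to 0.428 to 0.669 CPM, which covers counting error only. CPM are not divided by transcript length, so levels are compared between samples and not between genes. Gene names could be assigned only where a coordinate given by the study fell within a locus of the files. None of the 15 genes chosen to define skeletal muscle could be paired in this way, nor could any marker of fibroblasts, adipocytes, vessels, immune cells or nerve, so the tissue identity and the content of other cells were not tested. Because these are bulk samples, fewer cells of a type and less RNA per cell cannot be told apart in any of the results that follow.

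Of 12461 loci tested, 61 were differentially expressed genes (DEG) between PM and RF, which is 0.490% of the loci. The FDR, which is the Benjamini-Hochberg adjusted p of edgeR's quasi-likelihood test, had to be 0.01 or lower, and log2FC, the fitted difference PM minus RF, had to exceed 1 in size. There were 44 DEG with higher expression in PM (0.353% of loci) and 17 with higher expression in RF (0.136%). Log2FC ranged from 1.07 to 8.47 in the former, with a median of 1.89, and from -1.02 to -5.47 in the latter, with a median of -1.63. In 59 of the 61 DEG the difference had the same sign in all 4 animals. The 4 values of PM lay entirely above or below the 4 values of RF in 53 DEG, against 5.81% of all loci tested. The DEG were selected by a test of these same values with animal in the model, so nothing is read from either count. Unadjusted p was under 0.05 in 1635 loci, and the median log2FC of all loci was -0.01. With an FDR of up to 0.05 the DEG numbered 132, or 1.06% of loci.

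The count of DEG was lower without the pairing of muscles by animal and whenever an animal was left out. Without animal in the model there were 13 DEG, 9 higher in PM and 4 higher in RF. Leaving out animals 1 to 4 in turn gave 45, 47, 31 and 37 DEG. Fewer samples change the count by construction. Of the 36 pairs of muscles, which share samples, 17 had more DEG than PM and RF, and the median over pairs was 61.

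**Figure D1:**
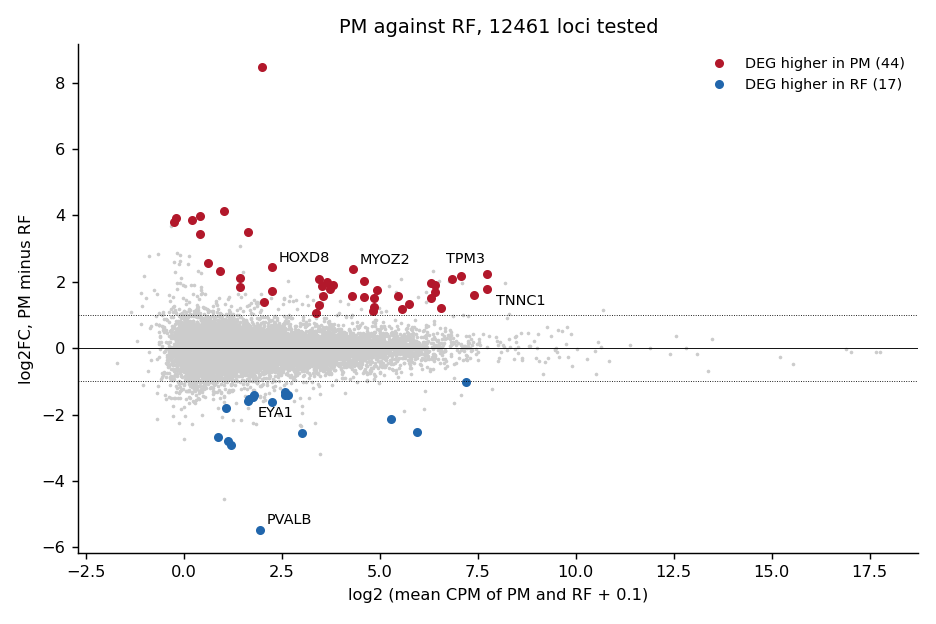
Fitted log2FC (PM minus RF, vertical axis) against the mean CPM of both muscles on a log2 scale (horizontal axis) for the 12461 loci tested. Each point is 1 locus, red points are the 44 DEG higher in PM, blue points the 17 DEG higher in RF, grey points the other loci, and dotted lines mark a log2FC of 1 and -1; PVALB has the lowest log2FC of the DEG, and the uppermost point, at 8.47, is the locus on chromosome 8 without any count in RF.

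Genes of slow fibers were higher in PM. Of the 14 genes listed as slow fiber contractile and calcium genes, 8 could be paired with a locus, and 6 of these 8 were DEG higher in PM, against 0.353% of all loci. None was a DEG higher in RF. The median log2FC of the 8 genes was 1.69, against -0.01 over all loci, and in 7 of the 8 all PM values were above all RF values, against 2.81% of all loci. The names came from tables that the study built from comparisons of other muscles of the same lambs, so the 8 genes were not an independent choice with respect to fiber type.

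MYOZ2, a Z-disc protein of slow and cardiac muscle that binds calcineurin, lies on chromosome 6 (chr6:6264895-6303407). Its expression was 4.93, 5.67, 5.32 and 7.80 CPM in RF of animals 1 to 4, and 18.5, 23.2, 59.4 and 32.1 CPM in PM. All PM samples were above all RF samples, and PM of animal 3 stood above the other PM samples. The log2FC was 2.38 (SE 0.37, n = 4 within-animal differences of log2 CPM) with an FDR of 7.88e-07.

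TPM3, the slow tropomyosin (chr1:103039221-103067829), measured 24.6, 34.6, 49.7 and 89.3 CPM in RF and 178, 193, 284 and 213 CPM in PM. The RF samples covered a wider relative range than the PM samples, without reaching them. The log2FC was 2.18 (SE 0.35) with an FDR of 7.88e-07. A locus without an Ensembl gene has the same coordinates and was also a DEG, with 46.6 ± 6.87 CPM in PM and 14.3 ± 8.86 CPM in RF (SD, n = 4) and a log2FC of 1.76. Since both loci cover the same interval, how the reads were shared between them is uncertain.

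MYL3, the essential light chain of slow myosin (chr19:52560400-52569198), measured 34.7, 26.5, 47.7 and 74.2 CPM in RF, and 182, 192, 206 and 158 CPM in PM. The PM samples were close to one another, and even the lowest of them was above the highest RF sample. The log2FC was 2.08 (SE 0.37) with an FDR of 3.71e-05.

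The 3 subunits of the slow troponin complex, which binds calcium and uncovers the thin filament, were DEG as well. TNNC1, the calcium-binding subunit (chr19:48403558-48406316), measured 48.7, 79.9, 109 and 144 CPM in RF and 229, 372, 418 and 293 CPM in PM, with a log2FC of 1.78 (SE 0.29) and an FDR of 0.000595. TNNT1, which anchors the complex to tropomyosin (chr14:59547242-59556889), measured 56.8, 73.2, 77.7 and 134 CPM in RF and 244, 271, 274 and 231 CPM in PM, with a log2FC of 1.60 (SE 0.29) and an FDR of 0.00196. TNNI1, the inhibitory subunit (chr12:78585640-78596742), measured 8.87, 15.3, 31.8 and 37.4 CPM in RF and 56.4, 71.2, 72.8 and 56.5 CPM in PM, with a log2FC of 1.56 (SE 0.46) and an FDR of 0.00744. In all 3 subunits the highest RF sample was that of animal 4 and lay below every PM sample. Unlike those of MYOZ2, TPM3 and MYL3, the calls of the troponin genes were lost in some fits. Without animal in the model the FDR was 0.0104 for TNNC1, 0.0184 for TNNT1 and 0.125 for TNNI1. Leaving out animal 3 gave an FDR of 0.0377 for TNNC1, 0.0588 for TNNT1 and 0.0698 for TNNI1. Leaving out animal 1 gave 0.0412 for TNNT1 and 0.103 for TNNI1, and leaving out animal 2 gave 0.0172 for TNNI1. The fit to the 8 PM and RF samples alone gave 0.0249 for TNNI1, whose call was also lost without edgeR's legacy setting. The sign was kept in each of these fits.

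The 2 genes of calcium handling in the list that could be paired did not pass the test. ATP2A2, the calcium pump of the slow sarcoplasmic reticulum (chr17:53803321-53860163), measured 115, 169, 263 and 298 CPM in RF and 356, 531, 447 and 350 CPM in PM. Its values did not overlap between muscles, and its log2FC was 1.02 (SE 0.35) with an FDR of 0.0224. Animal 4 showed the smallest difference, and without that animal the log2FC was 1.35 with an FDR of 0.00228. CASQ2, a calcium store protein of slow and cardiac fibers (chr1:92170833-92243108), measured 3.74, 1.75, 2.66 and 4.72 CPM in RF and 8.70, 6.84, 4.54 and 8.28 CPM in PM. PM of animal 3 overlapped with RF of animal 4, and the log2FC was 1.17 (SE 0.25) with an FDR of 0.0224. The calls of both genes depended on the fit. With the likelihood ratio test the FDR was 0.00979 for ATP2A2 and 0.00788 for CASQ2. The highest FDR over the alternatives was 0.176 for ATP2A2 and 0.137 for CASQ2.

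**Figure D2:**
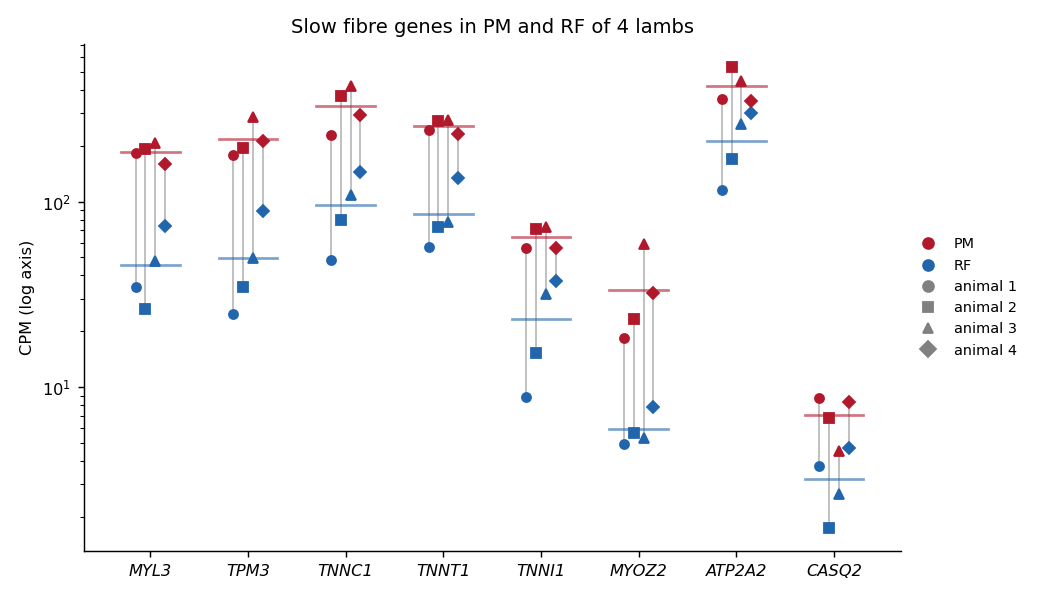
CPM (log axis) of the 8 slow fiber genes in RF (blue) and PM (red) of 4 lambs. Marker shapes are animals, grey lines join the muscles of 1 animal, and horizontal lines are group means; in each gene RF of animal 4 (diamond) is the highest RF sample, and PM and RF overlap only in CASQ2.

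The size of the contrast varied among the animals. The summed CPM of the 8 slow fiber genes was 298, 406, 587 and 791 in RF of animals 1 to 4, and 1273, 1660, 1766 and 1343 in PM. PM thus had 4.27, 4.09, 3.01 and 1.70 times the sum of RF in the 4 animals. Animal 4 had the highest RF value in 8 of the 8 genes and the smallest within-animal difference in 6 of 8. Animal 1 had the lowest RF value in 6 of 8 genes, and animal 3 had the highest PM value in 6 of 8. The sum is weighted toward the genes with the most counts.

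Across the 9 muscles, PM had the highest mean of this sum (1510 ± 240 CPM, SD, n = 4) and RF ranked 6th (520 ± 216). SS followed PM with 1222 ± 274, and the ranges of SS and PM overlapped. GB had 948 ± 167, and all of its samples were below all PM samples. Its lowest sample, at 736, was below the highest RF sample, at 791. RF lay among AD (659 ± 128), GM (650 ± 197), SM (480 ± 183) and LL (372 ± 163), and its range overlapped with that of each of them. ST was lowest (135 ± 34.2), and its highest sample, at 178, was below the lowest RF sample. Among the individual genes, the mean of PM was the highest of the 9 muscles for TPM3, MYL3, TNNC1, TNNT1, TNNI1 and ATP2A2, whereas MYOZ2 was highest in SS (53.9 CPM) and CASQ2 also in SS (10.02 CPM).

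**Figure D3:**
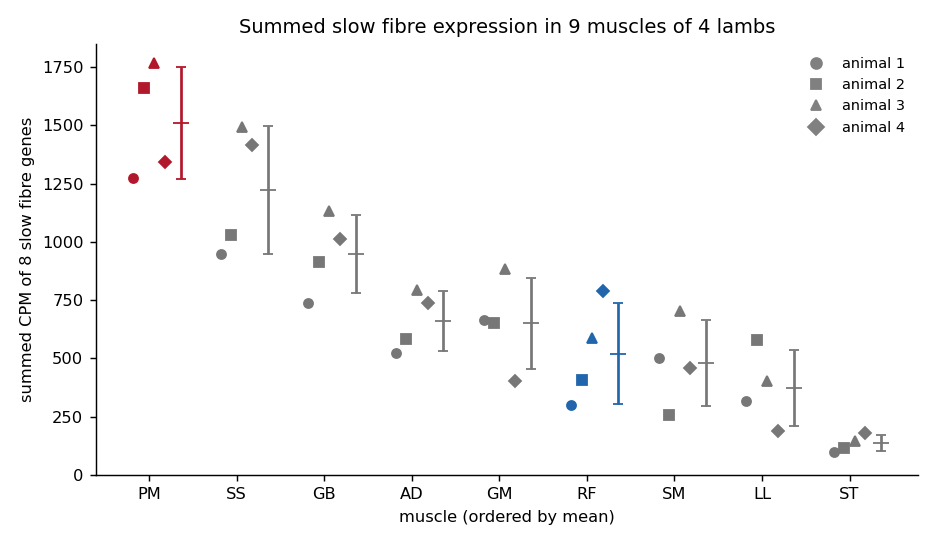
Summed CPM of 8 slow fiber genes in the 36 samples (vertical axis), by muscle in order of the mean. Points are samples with the animal given by shape, and bars show mean and SD over 4 animals; PM (red) is highest with 1273 to 1766 CPM, and RF (blue) spreads from 298 to 791 CPM.

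Loci at the positions of other muscle genes differed in their direction and in whether they passed the test. The coordinates of MYL2, the regulatory light chain of slow myosin, and of its neighbor CCDC63 fell within 2 loci that share the interval chr17:54257918-54303146, so neither name was assigned. Both were DEG. ENSOARG00000017779 measured 7.88, 6.11, 10.5 and 15.1 CPM in RF and 32.6, 46.6, 38.0 and 37.3 CPM in PM (log2FC 2.01, SE 0.33, FDR 2.22e-05). ENSOARG00000017646 measured 24.4, 35.2, 34.9 and 48.1 CPM in RF and 111, 148, 117 and 158 CPM in PM (log2FC 1.91, SE 0.12, FDR 0.00115). In both loci every PM sample exceeded every RF sample. The call of the latter locus was lost without animal 1 (FDR 0.0159) and without animal 3 (FDR 0.0194).

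MYLK3, a kinase of the myosin regulatory light chain known from heart (chr14:14547940-14606419), measured 12.6, 10.5, 29.9 and 17.8 CPM in RF and 44.8, 53.2, 28.5 and 33.8 CPM in PM. In animal 3 both muscles were nearly equal, and RF of this animal overlapped with PM. The log2FC was 1.25 (SE 0.52) with an FDR of 0.00505. The FDR was 0.123 without animal in the model, 0.0653 without animal 1, 0.0606 without animal 2 and 0.0342 without animal 4. In the fit to the 8 PM and RF samples alone it was 0.105, and 0.0115 with the likelihood ratio test on these samples. The call was also lost without edgeR's legacy setting. The name rests on the end coordinate of the locus only.

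The coordinates of FABP3, which carries fatty acids in oxidative fibers and heart, fell within 2 loci of the same interval (chr2:235135327-235198261). ENSOARG00000001603 was a DEG, with 12.6, 6.40, 6.32 and 14.3 CPM in RF and 33.7, 19.9, 33.0 and 29.1 CPM in PM (log2FC 1.57, SE 0.28, FDR 0.00128). Its values did not overlap between the muscles. Its FDR was 0.0985 without animal in the model and 0.0507 without animal 3. ENSOARG00000001618 had 2.28 ± 0.242 CPM in PM and 1.46 ± 1.11 CPM in RF, with an FDR of 0.419.

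Further structural genes did not pass the test. At the position of MYH7B, a myosin heavy chain related to the slow isoform, ENSOARG00000011188 had 44.9 ± 25.8 CPM in PM and 19.6 ± 8.37 CPM in RF (log2FC 1.09, FDR 0.179), and ENSOARG00000011695 had 11.3 ± 0.913 and 14.4 ± 1.81 CPM (log2FC -0.35, FDR 0.365). At the position of MYL6, an essential light chain known from smooth muscle and non-muscle myosin, 2 loci share the interval chr3:163076924-163101778. ENSOARG00000009931 had 30.04 ± 3.17 CPM in PM and 30.15 ± 5.49 CPM in RF (log2FC -0.01, FDR 0.994), and ENSOARG00000010069 had 4.40 ± 1.13 and 4.48 ± 0.412 CPM (log2FC -0.05, FDR 0.98). The sign of both was not stable between fits. MYOM3, a protein of the sarcomere M-band (chr2:241688442-241741074), measured 18.1, 8.15, 14.1 and 15.2 CPM in RF and 60.4, 25.3, 21.5 and 19.4 CPM in PM, with a log2FC of 1.17 (SE 0.35) and an FDR of 0.0576. Its values did not overlap, with PM of animal 1 far above the others.

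The list of fast fiber genes could be examined in only 1 of its 18 members. PVALB, the calcium buffer parvalbumin of fast fibers (chr3:180006084-180067626), measured 14.6, 8.15, 3.16 and 3.27 CPM in RF and 0.223, 0.311, 0 and 0 CPM in PM. RF thus held 167 counts in total and PM 3 counts, and all RF samples were above all PM samples. The log2FC was -5.47 with an FDR of 3.23e-06, a size that depends on the prior used by the fit because PM was at the counting limit. RF had the highest mean of the 9 muscles, followed by ST (5.68 CPM) and SS (5.63 CPM), and no other muscle exceeded 0.662 CPM. Of these 3 muscles, ST had the lowest slow fiber sum of all and SS a high one. LL and SM, with slow fiber sums below that of RF, had only 0.134 and 0.152 CPM of PVALB. Its level thus did not follow the slow fiber sum across muscles.

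HOXD8 was higher in PM. This homeobox gene of the HOXD cluster (chr2:132873609-132877353) measured 0.788, 1.16, 2.99 and 0.726 CPM in RF and 4.24, 7.77, 11.3 and 7.99 CPM in PM. The highest RF sample, that of animal 3, was below the lowest PM sample. The log2FC was 2.45 (SE 0.25) with an FDR of 6.33e-06. RF (1.42 ± 1.07 CPM) and SS (0.603 CPM) had the lowest means of the 9 muscles. In the other muscles the means ran from 7.39 CPM in GB to 14.0 CPM in LL, and PM (7.84 ± 2.91 CPM) lay within that range.

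The loci around HOXD8 had few counts. Within 50 kb there were 5 tested loci including HOXD8, of which only HOXD8 was a DEG. All 5 had a positive log2FC, between 0.71 and 2.88. The loci at lower coordinates than HOXD8 had FDR of 0.285, 0.0848 and 0.556. In animal 3 the first of these had 0.206 CPM in PM and 1.16 CPM in RF, and the last 0.413 and 0.832 CPM. No shift of the whole cluster is therefore read from the signs. The next gene, ENSOARG00000017504 (chr2:132882816-132884329), measured 0, 0.291, 0.333 and 0 CPM in RF and 1.56, 0.777, 1.86 and 1.43 CPM in PM. Its values did not overlap, and its FDR was 0.0168. It was singled out after its values were seen. HOXC10, the other Hox gene that could be paired (chr3:132378062-132383225), measured 4.53, 3.35, 1.497 and 3.45 CPM in RF and 1.78, 3.26, 3.095 and 2.14 CPM in PM. Its values overlapped, and the log2FC was -0.28 (SE 0.45) with an FDR of 0.751.

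EYA1, a transcriptional coactivator and phosphatase of muscle development (chr9:47588481-47960610), was higher in RF. It measured 3.55, 4.22, 4.82 and 5.44 CPM in RF and 1.56, 1.40, 0.825 and 2.28 CPM in PM, and no PM sample reached an RF sample. The log2FC was -1.58 (SE 0.25) with an FDR of 0.00699. This call rested on few counts, 106 in RF and 36 in PM. The FDR was 0.121 without animal in the model, 0.0333 without animal 2, 0.169 without animal 3 and 0.0829 without animal 4. In the fit to the 8 PM and RF samples alone it was 0.0319, and the call was also lost without edgeR's legacy setting. Over the 9 muscles SS (4.63 CPM) and RF (4.51 CPM) had the highest means of EYA1 and LL the lowest (0.383 CPM).

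The remaining genes of the lists showed no DEG. SIM2, a transcription factor of the bHLH-PAS family, had 0.601 ± 0.203 CPM in PM and 0.720 ± 0.467 CPM in RF (log2FC -0.09, FDR 0.972). METTL21C, a lysine methyltransferase of muscle, had 2.01 ± 1.39 and 1.498 ± 0.609 CPM (log2FC 0.25, FDR 0.948), although it reached 58.3 CPM in SS. SMYD2, another lysine methyltransferase, had 21.9 ± 3.65 and 16.3 ± 1.15 CPM (log2FC 0.44, FDR 0.204). PPP1R3D, which directs a phosphatase to glycogen, had 6.22 ± 1.81 and 3.86 ± 1.05 CPM (log2FC 0.65, FDR 0.169). For the lists of mitochondrial metabolism and fatty acid oxidation no member could be paired.

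**Figure D4:**
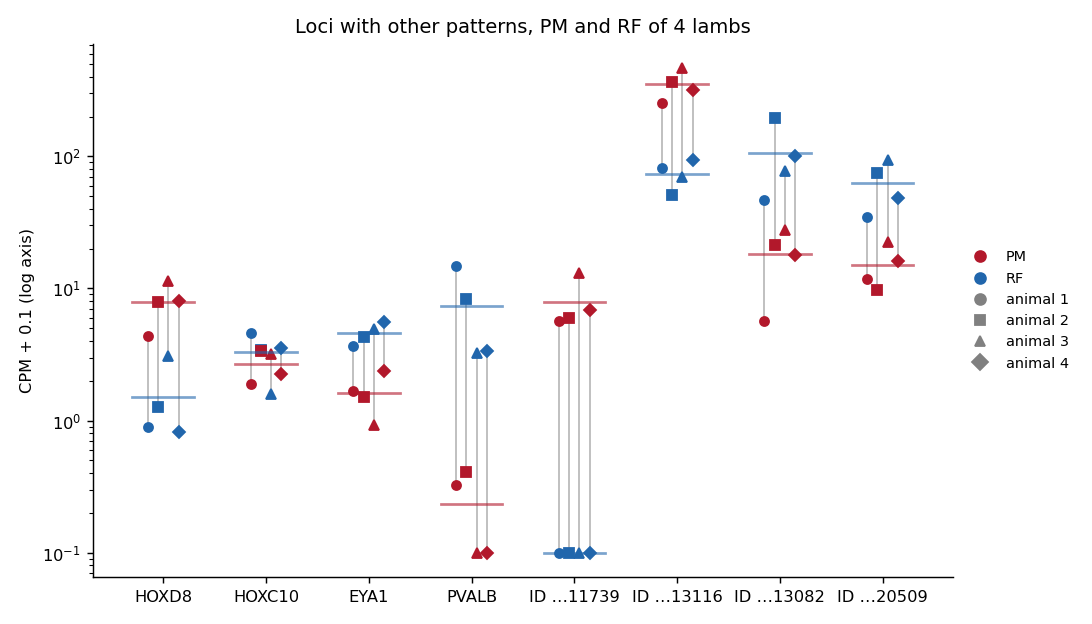
CPM + 0.1 (log axis) of HOXD8, HOXC10, EYA1, PVALB and, by the last 5 digits of their Ensembl identifiers, the loci ENSOARG00000011739, ENSOARG00000013116, ENSOARG00000013082 and ENSOARG00000020509 in RF (blue) and PM (red). Shapes are animals, grey lines join the muscles of 1 animal and horizontal lines are means; PM and RF overlap only in HOXC10, and points at the lower edge are samples without counts.

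In all, 31 of 40 gene names could be paired with a single tested locus. Of these 31 genes 8 were DEG higher in PM, against 0.353% of all loci, and 2 were DEG higher in RF, against 0.136%. Their median log2FC was 0.44, against -0.01 over all loci, and since the names come from tables of genes that differed between other muscles of the same lambs, the 31 genes are not a neutral sample. RIMS2, a protein of the presynaptic release site (chr9:72976729-73464816), had 3.94 ± 0.694 CPM in PM and 1.37 ± 0.863 CPM in RF without overlap (log2FC 1.55, FDR 0.0276). CHI3L1, a secreted glycoprotein (chr12:344371-366834), measured 49.1, 7.13, 14.1 and 11.1 CPM in RF and 57.1, 23.2, 50.8 and 40.0 CPM in PM, with a log2FC of 1.20 and an FDR of 0.0316. RF of animal 1 alone was at the level of PM, and without that animal the log2FC was 1.81 with an FDR of 2.65e-05. This locus carries both ENSOARG00000001277 and ENSOARG00000001370, so its counts cannot be given to CHI3L1 alone. A further 20 loci at coordinates of the study tables were not DEG, with log2FC between -1.28 and 0.53.

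Among the DEG without a symbol, those with the smallest p in each direction are described here. ENSOARG00000013116 (chr9:89664737-89675620) measured 81.4, 50.5, 69.7 and 94.0 CPM in RF and 255, 365, 464 and 319 CPM in PM. The muscles were far apart in every animal, and the log2FC was 2.23 (SE 0.32) with an FDR of 2.10e-08. RF had the lowest mean of the 9 muscles (73.9 ± 18.5 CPM), next to ST (92.6 CPM), whereas the other muscles lay between 248 CPM in SS and 383 CPM in LL.

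ENSOARG00000011739 (chr8:36569062-36646572) had 0 counts in each of the 4 RF samples and 5.57, 5.91, 13 and 6.71 CPM in PM, or 173 counts. The PM mean was 61.0 times a floor of 3 counts over the RF group, which is 0.128 CPM. This ratio leaves out the spread among the PM samples, of which animal 3 was the highest. The FDR of the fit was 4.32e-08. Among the other muscles LL had a mean of 4.50 CPM, and the remaining means were at most 0.147 CPM.

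In the direction of RF, ENSOARG00000003815 (chr1:234263233-234289203) measured 10.4, 9.75, 8.48 and 7.62 CPM in RF and 2.68, 2.80, 3.71 and 4.28 CPM in PM (log2FC -1.40, SE 0.24, FDR 0.000101). ENSOARG00000015686 (chr11:61551908-61837271) measured 12.02, 8.003, 5.66 and 8.35 CPM in RF and 4.01, 2.49, 2.27 and 3.85 CPM in PM (log2FC -1.40, SE 0.12, FDR 0.000116). All RF samples were above all PM samples in both loci. The call of ENSOARG00000015686 was lost without animal 1 (FDR 0.0107), and that of ENSOARG00000003815 was lost in the fit to the 8 PM and RF samples alone (FDR 0.0164).

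The 3 DEG with the most CPM in RF were singled out after their values were seen. ENSOARG00000013082 (chr13:10638778-10695547) measured 46.9, 196, 77.4 and 101 CPM in RF and 5.57, 21.3, 27.4 and 17.7 CPM in PM (log2FC -2.53, SE 0.38, FDR 0.000507), with an FDR of 0.0184 without animal in the model. RF had its highest mean and PM its lowest mean of the 9 muscles. ENSOARG00000020509 (chr1:198618107-198631249) measured 34.7, 74.5, 94.2 and 48.1 CPM in RF and 11.6, 9.64, 22.3 and 16.0 CPM in PM (log2FC -2.13, SE 0.32, FDR 0.00462). Without animal in the model its FDR was 0.0308, and without animals 2, 3 or 4 it was 0.0530, 0.0389 and 0.0375. ENSOARG00000009978 (chr9:29177876-29217444) measured 200, 214, 166 and 191 CPM in RF and 170, 73.8, 72.0 and 93.9 CPM in PM (log2FC -1.02, SE 0.28, FDR 0.00275). PM of animal 1 overlapped with RF, and the FDR was 0.354 without animal in the model and 0.0571, 0.0625 and 0.0375 without animals 2, 3 or 4. Its log2FC lies at the threshold of 1 in size, and the call was also lost with DESeq2 (log2FC -0.9995), with RLE size factors (-0.9994) and in both fits to the 8 PM and RF samples (-0.994).

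Over all DEG, PM had the highest mean of the 9 muscles in 23 of the 44 that were higher in PM, and RF had the lowest in 8 of them. RF had the highest mean in 9 of the 17 that were higher in RF, and PM had the lowest in 6 of them. Both muscles were at an extreme in 4 DEG of each direction, and neither was in 17 of the 44 and 6 of the 17. The DEG were selected on the same PM and RF values, which favors such ranks, so these counts are descriptive only.

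Loci absent from the Ensembl annotation made up 19 of the 61 DEG, with 17 higher in PM and 2 higher in RF, while they were 25.4% of the loci tested. Many of them were neighbors. Where DEG separated by at most 100 kb were joined, 4 regions held 17 of the 61 DEG, all higher in PM. A pair of them hold 2 DEG each and are the intervals of TPM3 and of MYL2 and CCDC63 described above, and the other 2 regions hold 13 DEG.

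The region chr3:138819344-138863155 spans 43.8 kb and has 10 tested loci, none with an Ensembl gene. All 10 had higher expression in PM, with log2FC of 2.30 to 4.12, 7 were DEG and 5 had all PM values above all RF values. The shares over all loci were 0.353% and 2.81%, but the region was formed by joining DEG, so nothing is read from these counts. The summed CPM of the 10 loci was 0.394, 3.49, 4.16 and 0.363 in RF and 8.03, 43.2, 27.0 and 10.4 in PM. In both muscles animals 2 and 3 were above animals 1 and 4, and PM was above RF in each animal. The counts were low in RF, 53 over the 10 loci and 4 samples, against 518 in PM. At its locus with the largest log2FC (chr3:138839190-138842956), RF measured 0, 0.582, 0.166 and 0 CPM and PM 1.11, 7.15, 4.75 and 1.57 CPM (FDR 3.095e-05). Over the 9 muscles the sum was highest in LL (41.4 CPM) and GM (29.3 CPM), followed by PM (22.2 CPM), and lowest in RF (2.10 CPM) and SS (1.61 CPM).

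The region chr22:30154699-30328411 spans 174 kb and has 10 tested loci, of which only ENSOARG00000010208 carries an Ensembl gene. All 10 were higher in PM, with log2FC in a narrow range of 1.43 to 1.88, 6 were DEG (0.353% of all loci) and 9 had all PM values above all RF values (2.81% of all loci), again in a region formed by joining DEG. The summed CPM was 61.5, 66.1, 154 and 38.1 in RF and 271, 249, 268 and 187 in PM. RF of animal 3 was above the other RF samples and still below every PM sample. Over the 9 muscles LL (285 CPM) and PM (244 CPM) had the highest sums and RF (80.0 CPM) and SS (41.8 CPM) the lowest.

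The loci of a region may be pieces of 1 transcript, and they are not independent observations. The number of DEG in these regions varied with the fit. Without animal in the model there were 0 in both regions. Leaving out animals 1 to 4 in turn gave 6, 3, 4 and 4 DEG in the chromosome 3 region (with 9 of the 10 loci tested without animal 2) and 2, 1, 6 and 1 in the chromosome 22 region. In the fit to the 8 PM and RF samples alone 2 loci of the chromosome 22 region were DEG, while none of the 10 loci of the chromosome 3 region passed the filter on low counts, so they were not tested there.

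**Figure D5:**
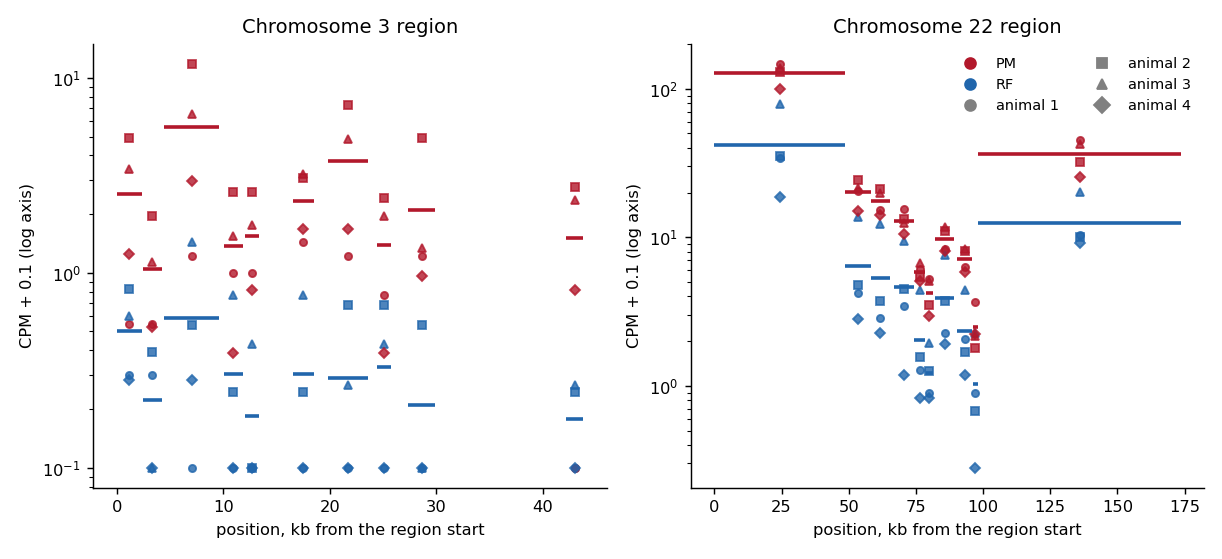
CPM + 0.1 (log axis) of the tested loci of the regions on chromosomes 3 and 22 against the distance from the region start in kb. Red is PM, blue is RF, shapes are animals and each horizontal bar spans 1 locus at the group mean; in each locus the PM mean is above the RF mean, and points at the lower edge of the left panel are samples without counts.

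Outside these regions, an unannotated locus at coordinates that the study lists for a new transcript was a DEG (chr1:230473614-230478546). It measured 0.394, 5.38, 5.82 and 4.35 CPM in RF and 14.7, 14.5, 20.6 and 19.8 CPM in PM, without overlap, with a log2FC of 2.09 (SE 0.67) and an FDR of 0.00275. RF of animal 1 was the lowest sample. The FDR was 0.0341 without animal in the model, 0.0507 without animal 3 and 0.0319 without animal 4. In the fit to the 8 PM and RF samples alone it was 0.0123. The other paired loci of this kind, on chromosomes 2, 7 and 20, leaned to RF. Their log2FC were -0.56 to -1.28, and they were not DEG.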

How the data were processed

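RNA-Seq data of 36 samples from 9 muscles of 4 lambs were used. The authors aligned the paired-end reads to Oar_v3.1 with Tophat 2.0.13, assembled loci with Cufflinks 2.2.1 together with the Ensembl annotation, and deposited whole-number counts per locus from htseq-count, without normalization. The strand setting of the counting is not given in the sources used here, nor is the sequencing lane of a sample. Each file has 31530 entries for 31136 loci. The 394 repeated entries were dropped.

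Loci were filtered with filterByExpr by muscle, normalized by TMM, and fitted with muscle and animal in all 36 samples (R 4.3.3, edgeR 4.0.16, limma 3.58.1). The contrast of PM and RF was tested by edgeR's quasi-likelihood method with Benjamini-Hochberg adjustment over 12461 loci. DEG had an FDR of 0.01 or lower and a log2FC larger than 1 in size. Biological variation (common BCV) was 0.195. SE describe the 4 within-animal differences of log2 CPM, for which a prior count of 2 was used. The procedure was tested on simulated data for this contrast, where it called 200 of 200 changed loci and 1 other among 11745. The changed loci had no low counts and fold changes above the threshold, so this does not show how many real differences are missed. Animals are separate biological replicates, and each of the 12 pairs of samples from 1 muscle differed by more than counting noise. The pairing comes from the animal number in the labels. The correlation of deviations from the muscle means was 0.0971 to 0.232 between PM and RF of the same animal and -0.221 to 0.0659 between different animals. The deviations of a muscle cancel out over its samples, so positive values within animals lower those between animals, and the gap is partly built in.

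The files hold no symbols. Names were given where the coordinates in the study's tables fell within a tested locus. Those coordinates were the only bridge from names to loci, and where several loci shared them the name was not assigned. The genes named are the paired members of the lists, the paired Hox, slow fiber and fast fiber genes, paired genes of the study's tables, and up to 2 loci without a symbol in each direction by smallest p. Exceptions are stated where they occur, and 20 loci of the tables are given by their range only. The comparison, the lists and the genes were chosen with earlier results of these data known. Alternatives were the likelihood ratio test, DESeq2 1.42.0, the 8 samples alone, no animal term, RLE size factors, no loci among the 4 most counted, other filters, a looser FDR, and each animal left out. The setting of edgeR's legacy option was added after seeing the data.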

Additional observations from a re-analysis of the deposited data

Results flagged for a closer look

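In each group of 4 values of a named locus (RF, PM and the within-animal differences), the sample at either end was compared with the rest by Dixon's criterion. Of 111 groups 7 were singled out, and chance alone singles out about 1 group in 20.

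ENSOARG00000011739 on chromosome 8 had 13 CPM in PM of animal 3, against 5.57 to 6.71 CPM in the other PM samples. The within-animal difference of MYOZ2 was 3.40 log2 CPM in animal 3, against 1.84 to 1.99 in the other animals. The locus paired with CHI3L1, which also carries another Ensembl gene, had 49.1 CPM in RF of animal 1. The difference between its muscles was 0.22 log2 CPM in that animal, against 1.65 to 1.82 in the others. MYOM3 had 60.4 CPM in PM of animal 1, against 25.3 CPM or less in the other PM samples. At the position of MYH7B, the difference of ENSOARG00000011188 was 3.11 log2 CPM in animal 1 and at most 0.68 in the others. At the position of MYL6, ENSOARG00000010069 had 2.71 CPM in PM of animal 4, below the other PM samples.

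Dixon's criterion was also applied to log2 CPM of all loci with a mean of at least 5 CPM in the muscle. The values of the named loci within a muscle had been judged on CPM instead. Single samples stood alone most often in PM of animal 3, with 65 loci alone high and 37 alone low of 4915, and in PM of animal 1, with 47 and 50. These counts are 8 and 15 in PM of animal 4. Chance alone also singles out loci, so no excess is read from the counts.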

How the results depend on the processing

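The number of DEG was 61, with 44 higher in PM and 17 higher in RF. Without animal as a replicate block there were 13 (9 and 4), the 8 PM and RF samples alone gave 28 (19 and 9), and leaving out an animal gave 31 to 47 (24 to 31 and 7 to 16), lowest without animal 3. The likelihood ratio test gave 109 (70 and 39), and on the 8 samples alone 114, with 52 higher in RF. DESeq2 gave 81 with 27 higher in RF, no filter 211 (127 and 84), and an FDR of at most 0.05 gave 132 (77 and 55). RLE size factors, TMM without the 4 most counted loci, a mean of at least 10 counts and edgeR without its legacy setting gave 62, 62, 51 and 58. Of the DEG reported, all 61 were also called by the likelihood ratio test and 60 by DESeq2. All 13 called without the block were among them. The cause of these differences was not tested, except that a looser FDR and fewer samples change the count by construction.

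Of 22 named loci called as DEG, 7 were called in each of the 15 alternatives. These were MYOZ2, TPM3, MYL3, HOXD8, PVALB, ENSOARG00000013116 and ENSOARG00000017779. ENSOARG00000011739 was called in the 14 alternatives that tested it, and a mean of at least 10 counts left it out. No called locus changed sign. Of the loci not called, ENSOARG00000009931 at the position of MYL6 changed sign to 0.0071 and 0.0083 in the 8 samples alone (likelihood ratio and quasi-likelihood), 0.0038 with DESeq2, 0.0088 with RLE size factors, 0.0038 without the 4 most counted loci and 0.0029 without a filter, and ranged from -0.059 to 0.066 when an animal was left out (0.066, 0.0093 and 0.0081 without animals 2, 3 and 4). ENSOARG00000010069 ranged from -0.12 to 0.099 (0.099 without animal 4). A further 3 changed sign when an animal was left out, with log2FC from -0.60 to 0.030 for HOXC10 (0.030 without animal 1), from -0.45 to 0.33 for SIM2 (0.33 without animal 1, 0.03 without animal 3) and from -0.30 to 0.94 for METTL21C (-0.30 without animal 3). The slow fiber genes called numbered 3 of 8 without the block and 3 to 7 when an animal was left out. They numbered 5 in the 8 PM and RF samples alone and without the legacy setting, and 7 with DESeq2. The likelihood ratio test called 8, or 7 on the 8 samples alone. Without a filter, and at an FDR of at most 0.05, 8 were called. The depth leaves differences of loci below about 1 CPM, such as PVALB in PM and the chromosome 3 region in RF, at the counting limit.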
